A study of Mus musculus with 4 samples.

Results

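The genes of the mitochondrial respiratory chain were examined on 4 expression arrays of newborn mouse tissue, 1 array for each combination of genotype (FoxO6-/- or WT) and tissue (mandible and maxilla, or brain). Members were taken by gene symbol: the subunit genes of complexes I to V, with the succinate dehydrogenase assembly factors that share the Sdh prefix, and without the Ndufaf assembly factors, Cox8b and Cox7a1. This gave 84 genes of the 18193 with a probe set that named a single gene, namely 36 of complex I, 8 of complex II, 8 of complex III, 15 of complex IV and 17 of complex V. Where a gene had several probe sets, the brightest over the 4 arrays stood for it. In the FoxO6-/- animals the coding region of FoxO6, a forkhead transcription factor, was replaced by a LacZ reporter and a neomycin resistance cassette, so both FoxO6-/- arrays carry those insertions and the WT arrays do not. The labels give postnatal day 0 for all 4 samples. The study's methods describe embryos and the pooling of 4 biological replicates for mandible and maxilla, and mutant animals that could be null or heterozygous. With 1 array per group, a genotype ratio within a tissue has no replicate check and no test.

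The respiratory chain moves electrons from NADH and succinate to oxygen across the inner mitochondrial membrane, and complex V uses the proton gradient this builds to make ATP. Complex I (Nduf genes) takes electrons from NADH and complex II (Sdh genes) from succinate, which makes it part of the TCA cycle as well. Complex III (Uqcr genes) passes electrons from ubiquinol to cytochrome c, and complex IV (Cox genes) passes them on to oxygen. Several subunits of complexes I, IV and V come in isoforms that differ between tissues, and brain and muscle are both known for high oxidative demand. A few core subunits are encoded in mitochondrial DNA and are not among these nuclear genes.

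Promoters of these genes are known for sites of NRF1, YY1, GABPA and the estrogen-related receptor ERRA, so the letters of each were searched on both strands of the RefSeq windows on GRCm38.p6, from 250 bases before to 50 bases after each start. A window was matched for 69 of the 84 genes. The 27025 genes with a window had 32851 windows, and a gene was counted where any of its windows held the letters. The NRF1 letters GCATGCGC were found for 9 of 69 genes (13.0%) against 3.05% of the 27025 genes. The YY1 letters AAGATGGC were found for 9 (13.0%, against 3.19%) and the GABPA letters CCGGAAGT for 5 (7.25%, against 4.31%). The ERRA letters TCAAGGTCA were found for 2 (2.9%, against 0.466%), namely Sdhd and Atp5g3. A match describes the letters only. No motif is contained in another, but the NRF1 letters are nearly their own reverse complement, so a single stretch can match on both strands. The 4 windows below are shown because their genes span the range of brain ratios reported further on, with the matched bases in capitals: an ERRA match in Sdhd (chr9:50603800-50604099, minus strand), overlapping NRF1 matches on both strands in Uqcrc1 (chr9:108936398-108936697, plus strand), a YY1 match in Ndufa9 (chr6:126849095-126849394, minus strand) and overlapping NRF1 matches in Cox6a1 (chr5:115348909-115349208, minus strand).
Sdhd: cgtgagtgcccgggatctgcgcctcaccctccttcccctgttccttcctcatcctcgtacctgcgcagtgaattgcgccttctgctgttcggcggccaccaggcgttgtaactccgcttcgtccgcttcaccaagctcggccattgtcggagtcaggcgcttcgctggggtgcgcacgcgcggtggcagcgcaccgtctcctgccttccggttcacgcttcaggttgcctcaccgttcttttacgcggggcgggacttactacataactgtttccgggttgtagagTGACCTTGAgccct
Uqcrc1: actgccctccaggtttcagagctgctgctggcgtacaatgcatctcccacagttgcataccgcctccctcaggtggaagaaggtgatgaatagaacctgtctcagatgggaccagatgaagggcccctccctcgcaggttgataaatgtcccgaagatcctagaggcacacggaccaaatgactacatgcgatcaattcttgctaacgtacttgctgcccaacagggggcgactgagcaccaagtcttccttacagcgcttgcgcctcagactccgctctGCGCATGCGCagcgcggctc
Ndufa9: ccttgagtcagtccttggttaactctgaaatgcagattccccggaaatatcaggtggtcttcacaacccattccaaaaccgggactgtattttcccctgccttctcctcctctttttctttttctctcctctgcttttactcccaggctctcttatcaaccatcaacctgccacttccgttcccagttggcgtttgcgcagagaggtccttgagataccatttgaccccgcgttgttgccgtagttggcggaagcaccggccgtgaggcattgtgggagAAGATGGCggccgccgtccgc
Cox6a1: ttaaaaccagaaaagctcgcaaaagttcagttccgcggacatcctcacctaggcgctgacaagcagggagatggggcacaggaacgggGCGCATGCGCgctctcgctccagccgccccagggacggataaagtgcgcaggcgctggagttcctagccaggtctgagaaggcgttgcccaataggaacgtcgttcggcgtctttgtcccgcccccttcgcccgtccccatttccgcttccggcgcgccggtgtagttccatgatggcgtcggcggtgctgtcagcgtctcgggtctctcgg

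Values are MAS5 signals, a linear brightness per probe set that the authors scaled to the same 2% trimmed mean on every array. The median signal over 45101 probe sets ran from 91.9 to 110 on the 4 arrays. A gene entered a comparison where its mean signal over the arrays compared reached 101, the median of all signals, and 81 of the 84 genes did so in each comparison. The others were Ndufb4, Cox4i2 and Cox7b2. Ratios are log2 of FoxO6-/- over WT signal, so a value below 0 means a lower signal in FoxO6-/-. The brightness of different probe sets cannot be compared, so levels are set side by side only within a gene. The targeted gene itself could not serve to check the labels, because no probe set named for Foxo6 was among those used. Neuron markers summed to 52688 and 66966 on the brain arrays against 3961 and 5865 on the mandible and maxilla arrays. Of the 16 skeletal muscle markers, all reached the floor of 101 on every array, the brain arrays included.

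In brain, nearly the whole respiratory chain had a lower signal on the FoxO6-/- array than on the WT array. Of 81 genes, 77 were below WT (95.1%), where 42.7% of the 12327 genes measured in brain were. At least 1.5-fold lower were 29 genes (35.8%, against 6.25% of all genes), and none was 1.5-fold higher (4.05% of all genes were). Only 4 genes were above WT (4.94%, against 57.3% of all genes). The median ratio was -0.39, that is 1.31-fold lower, against 0.05 over all genes. At 2-fold the members were close to the rest: 2 of 81 were lower by that much (2.47%, against 2.03%) and none was higher (1.13% of all genes were). No test of these counts is possible with 1 brain array per genotype.

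**Figure D1:**
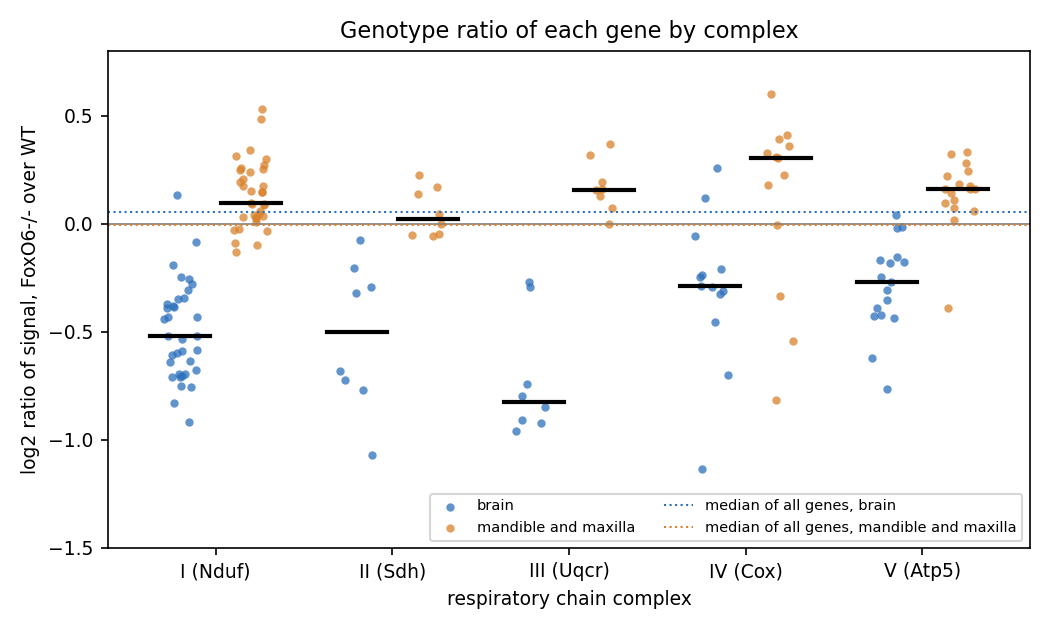
Log2 ratio of MAS5 signal, FoxO6-/- over WT (vertical axis), of each measured gene by complex (horizontal axis), in brain (blue) and in mandible and maxilla (orange). Each point is 1 gene, black bars are medians and dotted lines are the medians of all genes (0.05 in brain and -0.01 in mandible and maxilla); the brain points lie below 0 for 77 of 81 genes, lowest in complex III with a median of -0.82.

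By complex, the median brain ratio was lowest in complex III at -0.82 (1.77-fold lower, 8 genes), followed by -0.52 in complex I (1.43-fold, 35 genes) and -0.50 in complex II (1.41-fold, 8 genes). It was -0.29 in complex IV (1.22-fold, 13 genes) and -0.27 in complex V (1.20-fold, 17 genes). Genes at least 1.5-fold lower numbered 6 of 8 in complex III, 15 of 35 in complex I and 4 of 8 in complex II, but only 2 of 13 in complex IV and 2 of 17 in complex V. The difference between complexes was not tested, and it moved with brightness. Among genes with a mean signal under 10000, the medians were -0.59 in complex I (29 genes), -0.85 in complex III (5 genes), -0.31 in complex IV (6 genes) and -0.18 in complex V (7 genes). At 10000 and above they lay closer together, at -0.40 in complex I (6 genes), -0.29 in complex III (3 genes), -0.25 in complex IV (7 genes) and -0.29 in complex V (10 genes).

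Complex I held the longest run of lower genes, with 34 of 35 below WT in brain. Its core subunits, which carry the flavin and the iron-sulfur clusters, had a median of -0.70 over 6 genes. Ndufs1, the large iron-sulfur subunit, measured 2898 in FoxO6-/- brain and 4718 in WT brain, and 3780 and 3854 in FoxO6-/- and WT mandible and maxilla. Ndufv1, the subunit that binds NADH and the flavin, measured 4316 and 6983 in FoxO6-/- and WT brain, and 5106 and 5075 in mandible and maxilla. In both genes the WT brain array stood highest, the FoxO6-/- brain array lowest and the jaw arrays close together between them. The brain ratios were -0.70 and -0.69. The lowest complex I ratio in brain was that of Ndufb6, an accessory subunit, at -0.92 (6674 against 12600). Ndufa9, whose promoter is printed above, had 4089 against 7279, a ratio of -0.83. Ndufab1, which doubles as the mitochondrial acyl carrier protein, had -0.75. The exception was Ndufa4l2, a paralog of Ndufa4 known to be induced by low oxygen, at 0.13. Both genes were counted in complex I by their symbol prefix only, and Ndufa4 is now placed with complex IV. Ndufa4 itself had -0.28 in brain.

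All 8 complex II genes were below WT in brain, the enzyme's subunits by more than its assembly factors. The 4 succinate dehydrogenase subunits had a median of -0.74 in brain and each was at least 1.5-fold lower, while the 4 assembly factors Sdhaf1 to Sdhaf4 had a median of -0.25 and none was. The difference between these small groups was not tested. The next-brightest probe set gave 0.05 for Sdhc, -1.03 for Sdha and -0.61 for Sdhd. Sdhd, a membrane anchor, measured 2655 in FoxO6-/- and 5573 in WT brain, against 3123 and 3234 in mandible and maxilla. The WT brain array alone stood apart for this gene, and its brain ratio of -1.07 (2.10-fold) was the lowest apart from that of the dim Cox7c. The flavoprotein gene Sdha had 4392 against 7242 in brain (-0.72), the iron-sulfur subunit gene Sdhb 7133 against 11427 (-0.68) and the other anchor Sdhc 1601 against 2727 (-0.77). Sdha and Sdhb in mandible and maxilla gave ratios of 0.05 and 0.14.

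All 8 complex III genes were lower in FoxO6-/- brain. Uqcrq, a small ubiquinone-binding subunit, measured 4094 against 7968 in brain and 4623 against 4142 in mandible and maxilla, so that the genotypes were in opposite order in the 2 tissues. Uqcrfs1, the Rieske iron-sulfur protein, measured 5694 against 10689 in brain and 7190 against 6830 in mandible and maxilla. Uqcrc1, a core protein, measured 4285 against 7175 in brain and 4880 against 4887 in mandible and maxilla. For each of these genes the WT brain array was the highest of the 4 and the FoxO6-/- brain array the lowest. Their brain ratios were -0.96, -0.91 and -0.74. The other core protein gene, Uqcrc2, had -0.92. The weakest complex III ratio was that of Uqcrb, at -0.27 on its very bright probe set, but a dimmer probe set of the same gene gave -1.05.

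**Figure D2:**
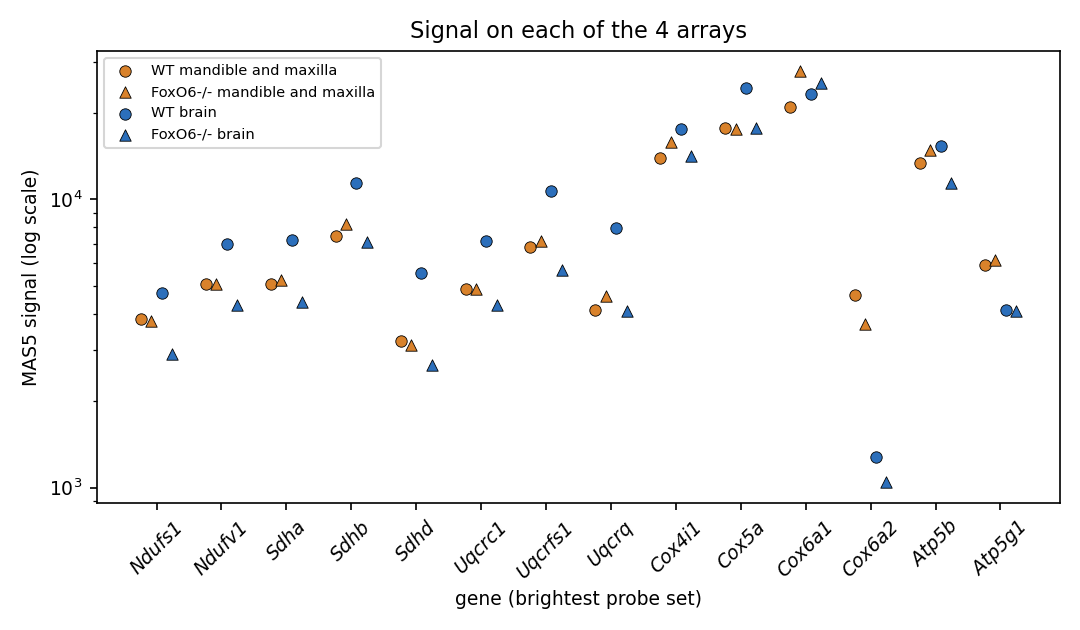
MAS5 signal on a log axis (vertical) of 14 named genes (horizontal) on the 4 arrays, with circles for WT, triangles for FoxO6-/-, orange for mandible and maxilla and blue for brain. Each point is 1 array and there are no error bars; for Sdhd the WT brain array reads 5573 and the FoxO6-/- brain array 2655, with both mandible and maxilla arrays between them, and Cox6a2 reads 3687 and 4656 in mandible and maxilla and 1044 and 1279 in brain.

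Complex IV ratios in brain were smaller, and the genes at the extremes were dim. Cox5a, a widely expressed nuclear subunit, measured 17730 in FoxO6-/- and 24293 in WT brain (-0.45), against 17599 and 17665 in mandible and maxilla. Only the WT brain array departed from the other 3, which lay close together. Cox4i1, the widely expressed isoform of subunit IV, had -0.31 and Cox8a, the widely expressed isoform of subunit VIII, -0.33. Cox6a1 was 1 of 4 genes above WT in brain, at 25247 against 23262 (0.12). A dimmer probe set of the same gene went the other way, at 9025 against 11893 (-0.40). The lowest ratio was that of Cox7c, a small structural subunit, at 197 against 433 (-1.14, 2.20-fold). Its probe set is dim for a subunit gene that every cell uses. Cox6b2 and Cox8c, testis isoforms, were also dim, with 155 against 252 (-0.70) and 209 against 175 (0.26).

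In complex V, 16 of 17 genes were below WT in brain. Atp5b, the catalytic beta subunit, measured 11441 against 15356 in brain and 14803 against 13399 in mandible and maxilla. Atp5a1, the alpha subunit, measured 11282 against 12660 in brain and 15163 against 12825 in mandible and maxilla. Both were lowest in FoxO6-/- brain, with brain ratios of -0.42 and -0.17. Atp5md, a small subunit known as DAPIT, had the lowest ratio at -0.77 (8309 against 14135). Atp5g1, Atp5g2 and Atp5g3, which encode the same c-ring protein with different leader peptides, had -0.02, -0.15 and 0.04.

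Both brain arrays stood at the ends of the range for most members. The WT brain array was the highest of the 4 for 56 of 81 genes (69.1%), where it was the highest for 17.5% of 12569 genes. The FoxO6-/- brain array was the lowest for 58 of 81 (71.6%), against 27.0% of all genes. It was the lowest for 8 of 8 complex III genes, 15 of 17 complex V genes and 4 of 13 complex IV genes, and it was the highest for none.

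Separate probe sets of a gene read different stretches of its transcript. Of 46 genes with at least 2 measured probe sets in brain, 42 had the same sign on the brightest pair and 40 were below 0 on every probe set. The median ratio was -0.41 on the brightest and -0.53 on the next, and the SD of the difference between them was 0.40. The dimmer of the pair had the lower ratio in 7 of 10 complex IV genes and 6 of 8 complex V genes, but in 7 of 20 complex I genes. With probe sets whose design marks them as specific to a gene, the median over 75 genes was -0.52.

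Mitochondrial genes that the symbol rule did not take as members were mostly lower in FoxO6-/- brain as well, as were those of glycolysis. The TCA cycle and pyruvate dehydrogenase genes, which feed the chain, had a median of -0.95 with 16 of 16 below WT. Citrate synthase (Cs), for example, had 8446 against 13955 (-0.72) and Idh3a, a subunit of isocitrate dehydrogenase, 4389 against 12240 (-1.48). The electron carrier list, which includes the complex III subunit gene Cyc1, had a median of -0.86 with 11 of 12 below WT. In it Cycs (cytochrome c) had 12494 against 23150 (-0.89). Assembly factors were at -0.29 (35 of 37 below WT), the mitochondrial ribosome at -0.35 (68 of 76) and glycolysis at -0.35. Known regulators of mitochondrial biogenesis had a median of -0.04: Tfam, which maintains mitochondrial DNA, had -0.04 and Nrf1 0.06, but the coactivator Ppargc1b had -1.51 (477 against 1361) and Esrra, which encodes ERRA, -1.17 (422 against 948).

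**Figure D3:**
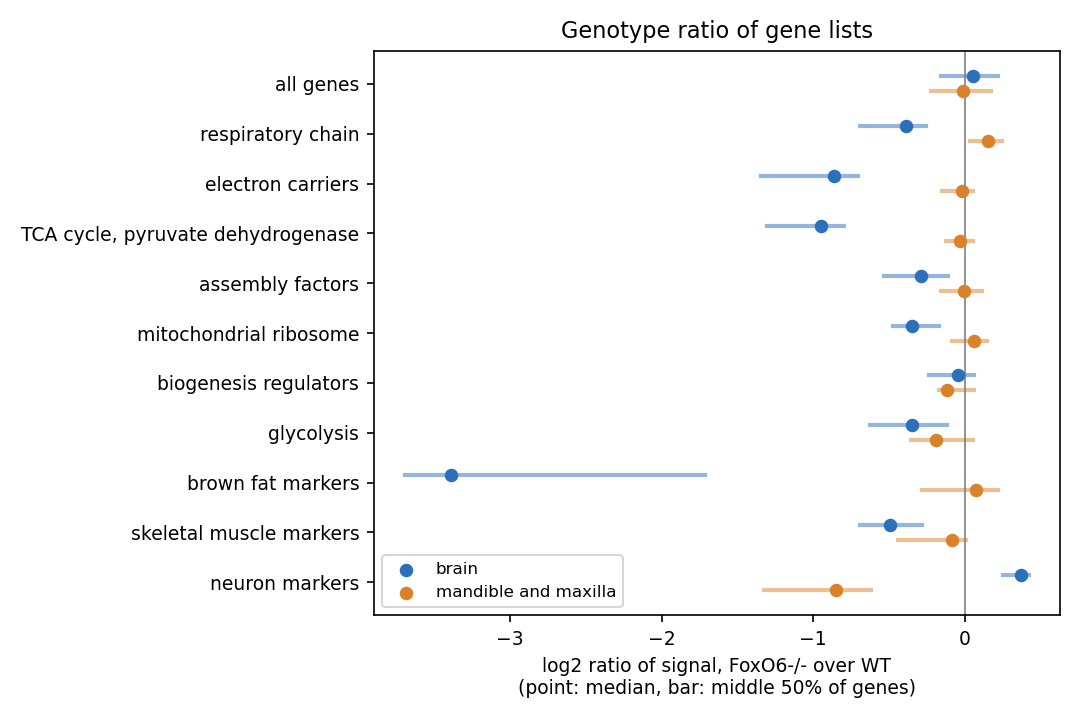
Log2 ratio of MAS5 signal, FoxO6-/- over WT (horizontal axis), for all genes, the respiratory chain and 9 other gene lists (vertical axis), in brain (blue) and mandible and maxilla (orange). Points are medians over genes and bars the middle 50% of genes; in brain the brown fat markers lie farthest from 0 at -3.39, the TCA cycle genes at -0.95 and the respiratory chain at -0.39.

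Markers of brown fat, a tissue packed with mitochondria, moved with this result. Ucp1, the proton carrier that defines brown fat, measured 405 in FoxO6-/- and 8381 in WT brain, against 4.50 and 1.58 in mandible and maxilla. Cidea, a lipid droplet protein, measured 728 against 10248 in brain. The excluded isoform genes Cox8b and Cox7a1, typical of muscle and brown fat, measured 864 against 7344 and 426 against 5059. The WT brain array was far above the FoxO6-/- brain array for each. All 8 listed brown fat genes reached the floor of 101 on the WT brain array, and their signals summed to 34433 there, 4680 in FoxO6-/- brain, 7096 in FoxO6-/- mandible and maxilla and 7204 in WT mandible and maxilla. The mandible and maxilla sums include Cox8b (2686 in FoxO6-/- and 2555 in WT) and Cox7a1 (1076 and 1516). They are therefore not a measure of brown fat alone. The median ratio in brain was -3.39 over the 7 listed genes whose mean brain signal reached the floor, and the other, Elovl3, measured 56.8 against 129. Skeletal muscle markers were also lower in FoxO6-/- brain (median -0.50, 16 of 16), with sums of 89288 against 111357, and neuron markers were higher (median 0.37, 11 of 12). Cartilage markers were higher in FoxO6-/- brain by more (median 0.87, 6 of 6), with sums of 40067 against 23042, as were the 3 olfactory epithelium markers measured (median 0.42). The part of these tissues in the respiratory chain ratios was not tested, and since every brain ratio uses the WT brain array, no brain ratio can be had without it. In these bulk samples, fewer cells of a type and less RNA per cell cannot be told apart.

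In mandible and maxilla the respiratory chain genes lay slightly on the other side of 0. Of 81 genes, 65 had a higher signal in FoxO6-/- (80.2%, against 48.7% of 12186 genes), with a median of 0.15 (1.11-fold) against -0.01 over all genes. The other 16 were lower (19.8%, against 51.3%). Only 1 gene was at least 1.5-fold higher (1.23%, against 3.48% of all genes) and 1 at least 1.5-fold lower (against 6.5%), and none differed 2-fold (0.591% of all genes were higher and 1.69% lower by that much). The median was 0.30 in complex IV, 0.16 in complexes III and V, 0.10 in complex I and 0.02 in complex II. These medians moved with brightness as well. In complex IV the median was -0.004 under a mean signal of 10000 (6 genes) and 0.30 at 10000 and above (7 genes). It went from 0.08 to 0.21 in complex I, from 0.15 to 0.32 in complex III and from 0.09 to 0.20 in complex V. The direction over all 81 genes rested on the scaling: with quantile normalization the median was -0.0026 and 39 of 81 genes were above WT. The FoxO6-/- mandible and maxilla array was also the one whose control transcripts leaned most to the 3' end, with a 3'/5' signal ratio of 3.37 for Actb and 1.95 for Gapdh against 2.21 to 2.23 and 1.44 to 1.55 elsewhere. Several marker lists of other cell types differed more between these arrays than the respiratory chain did. In FoxO6-/- mandible and maxilla, cartilage markers had a median ratio of -0.88 (6 of 6 lower, with sums of 20419 against 34630) and neuron markers -0.85 (9 of 9 lower, sums of 3961 against 5865). Olfactory epithelium markers had -1.84 (3 of 4 lower, sums of 1056 against 1927), while bone and enamel markers had 0.52 (7 of 8 higher, sums of 84848 against 65836). The part of RNA quality and of these cell types in the respiratory chain ratios was not tested.

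The mandible and maxilla genes farthest from 0 were mostly dim. Cox8c measured 240 in FoxO6-/- and 158 in WT (0.60), Ndufb1 208 against 144 (0.53) and Cox7c 203 against 359 (-0.82). Among bright genes Ndufb11, an accessory subunit of complex I, was highest at 15029 against 10749 (0.48). Cox6b2 was at -0.55 and Atp5md at -0.39, at 8291 against 10877. Cox6a2, the heart and skeletal muscle isoform, was at -0.34, but a dimmer probe set of the same gene gave 0.25 (2786 against 2339). Of 44 genes with at least 2 measured probe sets, 31 had the same sign on the brightest pair.

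Set side by side, 61 of 81 genes were above WT in mandible and maxilla and below WT in brain (75.3%, against 19.5% of 11494 genes). Genes on the same side in both tissues included Cox7c (-0.82 and -1.14), Atp5md (-0.39 and -0.77) and Cox6b2 (-0.55 and -0.70), lower in FoxO6-/-. Cox8c (0.60 and 0.26) and Cox6a1 (0.41 and 0.12) were each higher. On the dimmer Cox6a1 probe set the ratios were -0.004 and -0.40. With the genotype effect fitted over both tissues in limma, no respiratory chain gene passed a Benjamini-Hochberg adjusted p of 0.05, as none of the 12569 genes did (0%), and the smallest adjusted p was 0.902. At an unadjusted p under 0.05 were 3 of 81 (3.7%, against 4.68% of all genes), namely Cox7c at -0.98, Cox6b2 at -0.62 and Atp5md at -0.58. That fit has 1 residual degree of freedom and assumes the same ratio in both tissues.

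Between tissues, with both genotypes pooled in limma and the genotype as a covariate, 2 of 81 genes were higher in mandible and maxilla (2.47%, against 6.48% of 12569 genes) and 0 were higher in brain (against 8.73%). At an unadjusted p under 0.05 these counts were 3 and 0, and the share of all genes at that threshold was not counted. In this fit the 2 genotypes stood in for replicates of a tissue, so a genotype ratio that differed between tissues counted as error. Few calls therefore do not show that the tissues were alike for these genes. Cox6a2 measured 3687 and 4656 in FoxO6-/- and WT mandible and maxilla, and 1044 and 1279 in brain. The tissues did not overlap, and the difference was 1.84 on the log2 scale (SE 0.15, adjusted p = 0.0135), with a difference of 2.03 on a further probe set. Ndufa4l2 measured 367 and 357 in mandible and maxilla and 205 and 187 in brain, again without overlap (0.88, SE 0.15, adjusted p = 0.0463). This call was lost with arrays centred on their medians (adjusted p = 0.0605), with the mean of all probe sets (0.068) and with no floor (0.185), and the gene was below the floor at the 75th percentile. That of Cox6a2 was lost only with no floor (0.123). The muscle markers, of which 12 of 16 were higher in mandible and maxilla, moved with Cox6a2, and their part in its difference was not tested.

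Other isoforms differed less. Cox6a1, the widely expressed partner of Cox6a2, differed by -0.005 between tissues (SE 0.17, adjusted p = 0.987). Its dimmer probe set, which was not fitted, differed by -0.44. Atp5g1 measured 6173 and 5926 in mandible and maxilla and 4084 and 4145 in brain, a difference of 0.56 (SE 0.15) that missed the threshold (adjusted p = 0.101). Atp5g2 and Atp5g3 differed by 0.28 and 0.34, in the same direction and also short of the threshold. Cox8a had -0.30 and Ndufa4, now placed with complex IV, -0.17. Apart from that of the dimmer Cox6a1 probe set, these are limma values over 4 arrays.

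**Figure D4:**
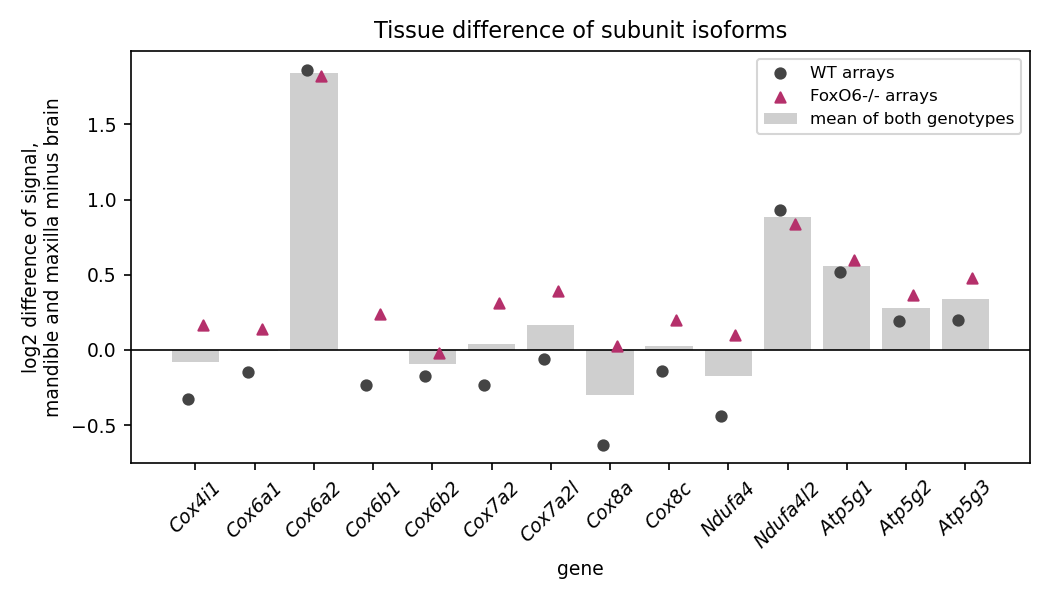
Log2 difference of MAS5 signal, mandible and maxilla minus brain (vertical axis), for 14 subunit isoform genes (horizontal axis). Bars are the mean of both genotypes, circles the WT arrays and triangles the FoxO6-/- arrays; Cox6a2 stands at 1.84 and Ndufa4l2 at 0.88 with both genotypes close together, while Cox8a is at -0.63 in WT and 0.03 in FoxO6-/-.

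Over all 81 genes the tissue difference had a median of -0.02, against 0.05 over all genes, with -0.07 in complex I, -0.11 in complex II, -0.03 in complex III, -0.005 in complex IV and 0.09 in complex V. Within each genotype the differences ran in opposite directions. On the WT arrays the median was -0.33 and 74 of 81 genes were lower in mandible and maxilla than in brain. On the FoxO6-/- arrays it was 0.26 and 77 of 81 were higher in mandible and maxilla. The median of all genes was 0.05 and 0.06 in the same comparisons. Complex III had the widest gap, from -0.53 on the WT arrays to 0.44 on the FoxO6-/- arrays. Complex I went from -0.41 to 0.25, complex II from -0.37 to 0.18, complex IV from -0.23 to 0.20 and complex V from -0.15 to 0.36. These values use the same 4 arrays as the genotype ratios and are not separate evidence of them. Cox6a2, Ndufa4l2 and Atp5g1 were higher in mandible and maxilla on both pairs of arrays. So were Atp5g2, Atp5g3, Atp5j and Atp5a1 of complex V, the last by only 0.02 on the WT arrays.

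**Figure D5:**
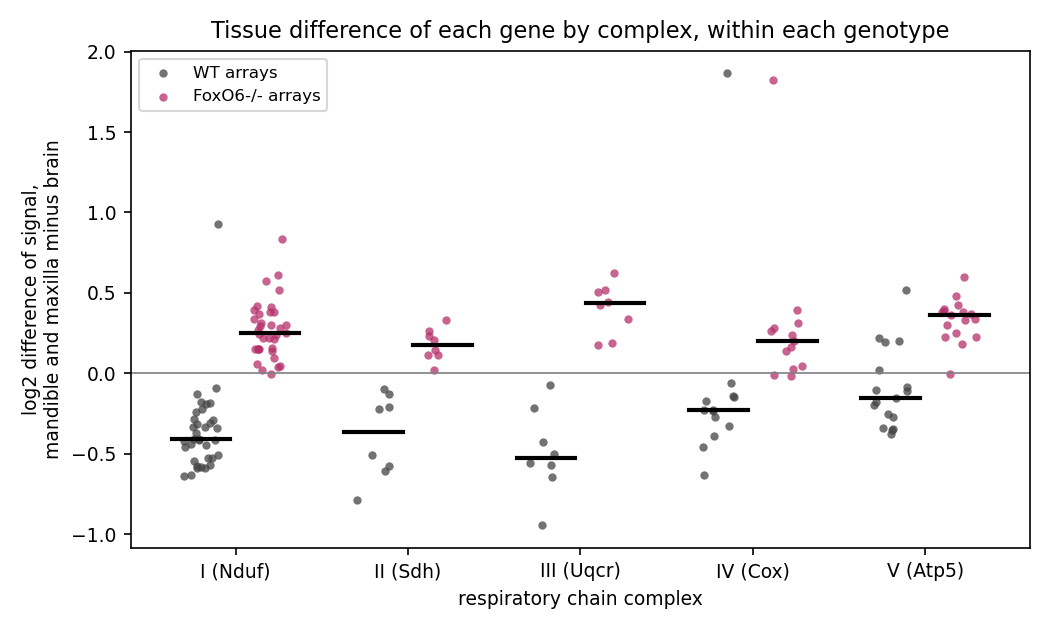
Log2 difference of MAS5 signal, mandible and maxilla minus brain (vertical axis), of each measured gene by complex (horizontal axis), on the WT arrays (grey) and on the FoxO6-/- arrays (magenta). Each point is 1 gene and black bars are medians; 74 of 81 genes are below 0 on the WT arrays and 77 of 81 above 0 on the FoxO6-/- arrays.

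The printed promoters sat across this range, with brain ratios of -1.07 for Sdhd, -0.83 for Ndufa9, -0.74 for Uqcrc1 and 0.12 for Cox6a1. The dimmer probe set of Cox6a1 gave -0.40. Uqcrc1 and Cox6a1 both held the NRF1 letters. Over the measured members with a matched window the median brain ratio was -0.54 with the NRF1 letters (9 genes) and -0.41 without (58 genes). It was -0.52 and -0.41 for YY1 (9 and 58 genes), -0.33 and -0.43 for GABPA (5 and 62 genes) and -0.51 and -0.43 for ERRA (2 and 65 genes). These are descriptions of few genes and were not tested.

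Of the 3 genes below the floor, Cox4i2, an isoform of lung and low oxygen, measured 18.8 to 57.8 over the 4 arrays and Cox7b2, a testis isoform, 2.37 to 44.0. Ndufb4, a complex I subunit, measured 24.5 to 38.2. Signals at this level are near background and have no order, so no ratio is given. For Ndufb4, brighter probe sets name another gene as well. In all, 10 probe sets naming a member together with another gene were left out, and Cox7b was not analysed here.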

How the data were processed

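Tissue RNA of 4 samples was hybridised to 1 Affymetrix array each. The deposited values are linear MAS5 signal intensities that the authors scaled to a 2% trimmed mean, which was 500.003 on every array. Of 45101 probe sets, 34958 name 1 gene in the platform annotation, 932 several and 9211 none. Probe sets of 1 gene were used, the brightest per gene, with a floor at the median signal (101). Signals were tested as log2 values without a pseudocount in limma 3.58.1 (R 4.3.3), with tissue and genotype as terms over 4 arrays and 12569 genes, 1 residual degree of freedom and p-values adjusted by Benjamini-Hochberg (threshold 0.05). Genotype ratios within a tissue have 1 array per group and were not tested. The number of arrays limits the precision, and nothing in the labels says more of how each sample's animals were kept apart. The residual of the fit, moderated over all genes, is how far the genotype ratio differed between tissues. The p-values therefore measure no spread between animals. The limma script was tested on simulated data. Promoters came from RefSeq (GRCm38.p6), matched by Entrez identifier. Genes named were the extremes of each comparison, isoform sets, catalytic subunits and genes below the floor. A further few were named after their values were seen: Ndufa9, Ndufab1, Ndufb6, Uqcrc2 and Atp5j among members, and single genes of the other lists. The members and lists were chosen with earlier results of these data known.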

Additional observations from a re-analysis of the deposited data

Results flagged for a closer look

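On the deposited scaling, 65 of 81 FoxO6-/- over WT ratios were above 0 in mandible and maxilla. In brain 77 of 81 were below it. Complex II had only 4 of 8 genes above 0 in mandible and maxilla. With quantile normalization the mandible and maxilla median was -0.0026, with 39 of 81 genes above 0. The median log2 ratio in mandible and maxilla minus that in brain was 0.54 over the respiratory chain genes, 0.62 in complex I, 0.52 in complex II, 0.98 in complex III, 0.59 in complex IV and 0.43 in complex V. Genes at least 0.3 above 0 in mandible and maxilla and at least 0.3 below it in brain were Cox8a, with a difference of 0.66, Ndufa2 with 0.70 and Ndufb11 with 0.85. Some others on opposite sides lay nearer to 0 in mandible and maxilla but differed by more, such as Uqcrq with 1.12. None of these differences was tested, since each group holds 1 array. The brown fat marker sum, which includes genes also typical of muscle, was 34433 on the WT brain array and 4680 to 7204 on the others. Its part in these differences was not tested.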

How the results depend on the processing

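Of the medians and counts recomputed under the alternatives, 106 stayed within 0.1 on the log2 scale (counts, within 1.5 times) and 52 moved, as follows. The median tissue difference, mandible and maxilla minus brain, was -0.33 on the WT arrays (-0.41, -0.37, -0.53, -0.23 and -0.15 in complexes I to V) and 0.26 on the FoxO6-/- arrays (0.25, 0.18, 0.44, 0.20 and 0.36). With centring it was -0.14 (-0.19, -0.23, -0.16, -0.13 and -0.034), and with quantile normalization -0.17 in complex IV and -0.030 in complex V, whose sign changed under both scalings. With arrays centred on their medians, all-gene medians moved to 0.20 in brain, 0.12 in mandible and maxilla and -0.07 between tissues, and the brain median of the respiratory chain to -0.25 (72 of 81 below 0), with -0.38, -0.36, -0.68, -0.15 and -0.13 in complexes I to V. Relative to all genes the members stayed at -0.44 in brain. The mandible and maxilla median became 0.28, with 0.23, 0.16, 0.29, 0.44 and 0.29 in complexes I to V. Quantile normalization gave -0.0026 in mandible and maxilla, a change of sign, with 0.027, -0.037 and -0.0072 in complexes III, IV and V. Gene-specific probe sets gave a brain median of -0.52 (-0.39 in complex V), and the next-brightest probe set, an alternative chosen after seeing the data, -0.53. The mean of all probe sets gave -0.36 and -0.39 in complexes II and V in brain and 0.11 in complex IV in mandible and maxilla. Genes 2-fold different in brain numbered 1 with the floor at the 75th percentile, 4 with gene-specific probe sets, 4 with the mean and 0 with centring. In mandible and maxilla they numbered 1 with gene-specific probe sets and 2 with no floor. Genes higher in mandible and maxilla by limma numbered 1 with the higher floor, the mean or centring, and 0 with no floor, where 0 of 18193 genes passed. Cox6a2 then had an adjusted p of 0.123 (0.0017 to 0.0165 otherwise), and Ndufa4l2 had 0.185 with no floor, 0.068 with the mean and 0.0605 with centring. With a variance trend Atp5g1 passed (adjusted p = 0.0305). No paired analysis was possible because each group holds 1 array. Leaving out an array leaves no residual degrees of freedom for a test in the full model. The precision is limited by 1 array per group, and signals near background carry no order.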
